A study of Acomys cahirinus and Mus musculus with 24 samples.

Results

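The mouse wound 14 days after injury was compared with unwounded mouse skin, using 7 of the 24 RNA-seq libraries of the series: 4 of day 14 wound (replicates 1 to 4) and 3 of day 0 skin (replicates 1, 2 and 4), selected by their labels. All 7 libraries came from dorsal skin of adult CD-1 mice, an outbred laboratory stock. Each wound was an excision of 8 mm through the full thickness of the skin, and the day 0 skin had not been wounded. The labels name no drug, transgene or engineered allele in any group, and they do not tell if each library is a separate animal. P-values therefore reflect spread among libraries, which may be technical. A further 4 libraries of mouse wound at day 7 entered the same fit and are used where day 14 is set beside day 7. The study also sampled a spiny mouse species, Acomys, which is not analysed here. Libraries held 11023528 to 12939254 estimated counts at day 0 and 9339214 to 13188137 at day 14, and 15423 of 23998 genes had counts enough to be tested.

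A full-thickness wound in adult mouse skin closes within about the period sampled here: keratinocytes migrate from the edge to restore the epidermis, while fibroblasts and new vessels fill the gap with granulation tissue, which is then remodelled into a collagen-rich scar. The early matrix is rich in fibronectin, tenascins and hyaluronan, and it is bound, cut and crosslinked by secreted enzymes while inflammatory cells leave. Hair follicles, sebaceous glands and dermal fat, which normal skin holds, are removed with the excised tissue, and follicles at the wound margin can enter a growth phase.

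Values are counts per 1000000 (CPM), scaled by the trimmed mean of M values, and are given for skin in the order of replicates 1, 2 and 4 and for the wound in the order of replicates 1 to 4. CPM does not correct for gene length, so it is compared between groups and not between genes. Differences are log2 fold changes, day 14 over day 0, with the standard error (SE) after ±. The words rose and fell are kept for genes for which edgeR's quasi-likelihood test gave a Benjamini-Hochberg adjusted p below 0.05 over all genes tested. The gene lists were drawn up by function, and a symbol on more than 1 row of the table counts once per row.

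The libraries matched their tissue label. The summed level of 6 keratinocyte markers was 6298 to 7741 CPM in skin and 7799 to 14744 CPM in the wound, and that of 6 fibroblast markers was 91728 to 100523 CPM and 97037 to 120629 CPM. Fibrillar collagen genes summed to 91381 to 100150 CPM in skin and 102077 to 128350 CPM in the wound. The fibroblast sum may thus be mostly collagen transcript. The summed level of 8 skeletal muscle fibre markers was 8608 to 10284 CPM in skin, but 5184, 7.10, 17.4 and 1197 CPM in wound replicates 1 to 4, so replicates 2 and 3 nearly lacked muscle transcripts. Sebocyte markers summed to 454 to 478 CPM in skin and 11.8 to 39.0 CPM in the wound, and adipocyte markers to 678 to 868 CPM and 67.4 to 221 CPM. Macrophage markers summed to 658 to 696 CPM in skin and 1937 to 2485 CPM in the wound, and neutrophil markers to 22.8 to 30.5 CPM and 91.2 to 281 CPM. In whole tissue, fewer cells of a type and less RNA per cell cannot be told apart. On the first principal component, with 63.3% of the variance, day 14 libraries lay at -28.7 to -5.61, between skin at 90.0 to 94.5 and day 7 wound at -53.3 to -44.2.

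At day 14, 3582 genes were higher than in skin (23.2% of those tested) and 3495 were lower (22.7%). The median log2 fold change over all genes tested was 0.02. The libraries of the groups did not overlap, in the higher direction, for 4010 genes (26.0%), and in the lower direction for 4051 (26.3%). Against the day 7 wound, 1659 genes were higher at day 14 (10.8% of those tested) and 2026 were lower (13.1%). These shares are the background against which the counts of each gene list are read.

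**Figure D1:**
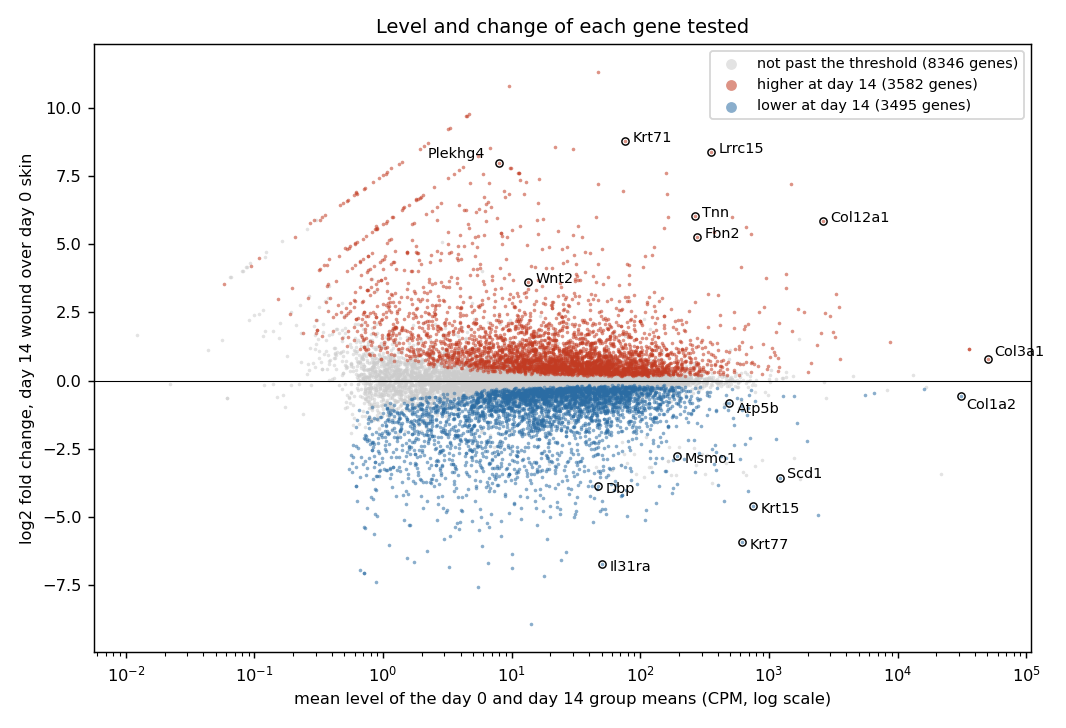
Each point is 1 of 15423 genes tested, with its mean level over the day 0 and day 14 groups (x axis, CPM, log scale) against its log2 fold change in the day 14 wound over day 0 skin (y axis). Red points are the 3582 genes called higher and blue points the 3495 called lower; circled genes are described in the text, and the straight bands at the upper left are genes with very few counts in skin.

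Among the genes with the largest rises was Lrrc15, which encodes a leucine-rich repeat membrane protein of activated fibroblasts and lies at chr16:30269302-30283256 (GRCm38, GENCODE vM21, protein-coding). Its level was 1.15, 2.90 and 2.24 CPM in skin and 369, 1066, 720.2 and 674 CPM in the wound. Every wound library lay far above every skin library, a log2 fold change of 8.37 ± 0.64 (adjusted p = 6.6e-06). The guanine nucleotide exchange factor gene Plekhg4 stood at 0.0886, 0 and 0.0724 CPM in skin, which is 2 counts in all, and at 11.9, 16.0, 15.8 and 19.8 CPM in the wound, a narrow spread. Prokr2, a prokineticin receptor, was at 0, 0 and 0.0724 CPM in skin (1 count) and 4.36, 12.1, 13.1 and 24.3 CPM in the wound. Dlk1, an imprinted gene that encodes a Notch-like surface protein, rose by 7.62 ± 1.17, with wound replicate 2 the highest library; without it the value was 7.02. The table lists Dlk1 on 2 rows with equal values.

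The largest falls included several genes with little transcript left in any wound library. Il31ra encodes a subunit of the receptor for the itch cytokine interleukin 31 and lies at chr13:112519898-112594360 (GRCm38). It stood at 95.6, 95.2 and 108 CPM in skin and at 0.678, 0.888, 0.660 and 1.41 CPM in the wound. All 4 wound libraries lay far below skin, with a log2 fold change of -6.73 ± 0.19, and day 7 libraries stood at 0.462 to 0.728 CPM. The anion transporter gene Slc26a7 went from 15.9 to 27.3 CPM to 0 to 0.235 CPM (log2 fold change -6.85 ± 0.44), and the neuronal nitric oxide synthase gene Nos1 from 16.7 to 24.5 CPM to 0 to 0.485 CPM (-6.35 ± 0.73). Mstn, the muscle growth inhibitor myostatin, fell by 6.27 on the log2 scale (-6.92 without wound replicate 1). The cytochrome P450 genes Cyp2b23 and Cyp3a57, whose families hold near-identical copies, also fell, at -7.17 and -6.66, or -7.80 for the first without wound replicate 2 and -7.47 for the second without wound replicate 3. Mpo, the myeloperoxidase of neutrophil precursors, was at 43.8, 48.9 and 50.4 CPM in skin and 0.388, 0.444, 0.754 and 0.391 CPM in the wound. Mpo made up nearly all of the summed level of 6 bone marrow precursor markers in skin, 45.0 to 51.7 CPM, which was 1.26 to 4.33 CPM in the wound.

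Collagens did not move as one group. Of 10 fibrillar collagen genes, 7 rose, 1 fell and 2 did not pass the test, with a median log2 fold change of 1.69. The minor fibrillar chains rose most: Col24a1 by 4.61 ± 0.23, Col11a1 by 3.91 ± 0.42, Col27a1 by 3.19 ± 0.18 and Col5a3 by 3.13 ± 0.21. Of the chains of the abundant collagens I and III, Col3a1 rose from 39171, 33621 and 39503 CPM to 60127, 62965, 64833 and 70100.1 CPM (0.79 ± 0.12), while Col1a2 fell from 39204, 35082 and 37502 CPM to 22124, 27771, 27813 and 24243 CPM (-0.55 ± 0.10). All 4 wound libraries lay above skin for the first and below it for the second. Col1a1 did not pass the test (-0.24 ± 0.31), except where wound replicate 2 was left out (-0.60, adjusted p = 0.049), also together with replicate 3 (-0.86, adjusted p = 0.0099). Among 27 other collagen genes, 14 rose and 8 fell. Col12a1, a fibril-associated collagen at chr9:79598991-79718831 (GRCm38), stood at 86.3, 84.3 and 96.5 CPM in skin and 3834, 6571, 5259 and 5109 CPM in the wound, a log2 fold change of 5.87 ± 0.27 with no overlap. Its relative Col14a1, which also binds fibril surfaces, rose by 3.74 ± 0.23 and exceeded its day 7 level by 1.31. Col8a1, a short-chain collagen of vessels and remodelling tissue, rose by 4.15 ± 0.28. Col7a1, the collagen of anchoring fibrils below the epidermis, rose from 123 to 145 CPM to 563 to 841 CPM (2.41 ± 0.20) and was above day 7 by 1.22.

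The 6 chains of collagen IV, the network collagen of basement membranes, split by gene. They are encoded in head-to-head pairs: Col4a1 with Col4a2, Col4a3 with Col4a4 at chr1:82448423-82722059, and Col4a5 with Col4a6 at chrX:141165403-141689234 (GRCm38). Col4a1, of the chain pair found in nearly all basement membranes, stood at 449, 439 and 419 CPM in skin and 892, 1084, 1061 and 1034 CPM in the wound, and Col4a2 moved with it (log2 fold changes 1.22 ± 0.13 and 1.07 ± 0.13). Both had come down from day 7, with differences of -0.72 and -0.63. Col4a6 stood at 46.1, 37.7 and 45.3 CPM in skin and 3.78, 2.00, 3.77 and 2.74 CPM in the wound, with no overlap (-3.80 ± 0.23). Col4a3, Col4a4 and Col4a5 also fell, with log2 fold changes of -3.65, -2.04 and -0.83. Without wound replicate 1 that of Col4a3 was -4.29, and Col4a5 did not pass without skin replicate 1 (-0.80, adjusted p = 0.060), skin replicate 4 (-0.80, adjusted p = 0.060) or wound replicates 2 and 3 (-0.59, adjusted p = 0.078). So 2 chains rose and 4 fell. Over all 21 basement membrane and hemidesmosome genes 8 rose and 8 fell. The laminin chain genes Lamb1 (2.87 ± 0.09) and Lama4 (1.95 ± 0.13), found in vessel and stromal basement membranes, rose, as did the linker nidogen genes Nid1 (2.68 ± 0.15) and Nid2 (2.03 ± 0.15). The laminin genes Lama1 (-4.69 ± 0.41) and Lamc3 (-3.16 ± 0.30) fell, and Lamb3, a chain of the main epidermal laminin, fell by 0.96. Col17a1, the transmembrane collagen of the hemidesmosome, fell from 1066 to 1208 CPM to 204 to 366 CPM (-2.11 ± 0.19), and its binding partner integrin beta 4 (Itgb4) fell by 1.11.

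Enzymes that modify, fold and crosslink collagen rose in 17 of 24 cases and fell in 4. P4ha3, a prolyl 4-hydroxylase subunit, stood at 0.177, 0.0742 and 0.145 CPM in skin and 16.4, 27.7, 11.6 and 13.2 CPM in the wound. Skin held almost none of it, and the log2 fold change was 6.93 ± 0.45. Plod2, the lysyl hydroxylase that sets pyridinoline crosslinks, stood at 3.10, 1.78 and 2.32 CPM and then 34.4, 62.9, 39.3 and 53.1 CPM (4.31 ± 0.29), again without overlap. Among the lysyl oxidases, which start collagen crosslinks, Loxl3 (2.99 ± 0.18) and Loxl1 (1.96 ± 0.23) rose and Loxl4 fell (-1.04 ± 0.18). Of the procollagen N-proteinases, Adamts3 rose (2.75 ± 0.65) and Adamts2 fell (-0.74 ± 0.13). Pcolce2, an enhancer of C-propeptide removal, fell by 2.81.

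The list of matricellular and provisional matrix proteins held 16 genes that rose and 2 that fell of 24, with a median of 2.06. The tenascin gene Tnn stood at 7.80, 7.87 and 8.40 CPM in skin and 319.9, 623, 579 and 571 CPM in the wound. No skin library came near the wound range, and the log2 fold change was 6.02 ± 0.42. Fn1, fibronectin, stood at 721, 688 and 588 CPM and then 6733, 8142, 4562 and 4595 CPM (3.17 ± 0.26). The CCN family genes Nov (6.85 ± 0.72) and Wisp1 (4.23 ± 0.27) and the thrombospondin gene Thbs2 (3.40 ± 0.27) also rose. Ctgf, another CCN family member, did not pass the test (0.13 ± 0.34), and the calcium-binding matrix genes Sparc (-0.44) and Smoc1 (-2.96) fell.

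Of 19 elastic fibre genes 12 rose and 3 fell, and 11 were above their day 7 level. Without skin replicate 1 or 4, wound replicate 3, or wound replicates 2 and 3 or 1 and 4 together, 1 fell. Fbn2, the fibrillin of developing tissue, stood at 18.3, 12.5 and 11.2 CPM in skin and 507, 675, 499 and 469 CPM in the wound (5.26 ± 0.28), a clear separation. Fbn1, the fibrillin of adult microfibrils, rose by 2.35 ± 0.26 and the microfibril gene Mfap5 by 4.60 ± 0.28. Eln, which encodes elastin itself, did not pass the test. It stood at 87.5, 82.3 and 81.9 CPM in skin and 198, 167, 57.0 and 54.2 CPM in the wound, where replicates 1 and 2 lay above all skin libraries and replicates 3 and 4 below all of them. None of 15 hyaluronan genes fell and 9 rose, among them the hyaluronan-matrix organisers Ptx3 (5.30 ± 0.48) and Tnfaip6 (3.10 ± 0.51) and the synthases Has1 (2.27 ± 0.54) and Has2 (1.12 ± 0.19). With the replicate number as a block, and without wound replicate 3 alone or with replicate 2, 1 hyaluronan gene fell.

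Matrix proteases and their inhibitors gave 25 rises and 5 falls among 37 genes, with 3 falls without wound replicates 1 and 4. Adam12, a disintegrin metalloprotease of activated mesenchyme, stood at 15.2, 12.9 and 22.1 CPM in skin and 523, 901, 752 and 724 CPM in the wound (5.44 ± 0.28). The collagenase gene Mmp13 was at 0.443, 0.445 and 0.941 CPM and then 15.3, 55.8, 195 and 104 CPM. All wound libraries lay above skin but they differed widely among themselves, with replicate 1 lowest and replicate 3 highest, and the log2 fold change was 7.20 ± 0.99, or 6.54 without replicate 3. Mmp11 (stromelysin 3) rose by 4.29 ± 0.52 and the aggrecanase gene Adamts4 by 5.67 ± 0.31. Ctsk, the collagen-degrading cathepsin K, went the other way, from 681 to 811 CPM to 227 to 325 CPM (-1.36 ± 0.12). Of the inhibitors, Timp1 rose (3.16 ± 0.32) and Timp4 fell (-2.53 ± 0.53). Among 18 integrin genes 9 rose and 5 fell. The collagen receptor subunit gene Itga11 (3.54 ± 0.33) and the fibronectin receptor subunit gene Itga5 (2.06 ± 0.24) rose, and Itga8 fell (-1.52 ± 0.13).

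Fibroblast lineage genes rose in 20 of 32 rows and fell in 2. Sfrp2, a secreted Wnt modulator of dermal fibroblasts, rose by 5.60 ± 0.40. Genes used to mark fibroblast layers and states also passed: Dpp4, of upper dermal and fascia fibroblasts, by 1.23 ± 0.32, Crabp1, of papillary dermis, by 2.82 ± 0.34, and En1, of the scar-forming dorsal lineage, by 1.55 ± 0.24. Lrig1 fell (-0.84 ± 0.14), and Acta2, the smooth muscle actin of myofibroblasts and vessel walls, did not pass the test (0.20 ± 0.22). Dpp4 was also above its day 7 level, by 2.12, but without wound replicates 1 and 4 its rise over skin, 0.64, did not pass (adjusted p = 0.070). The cartilage and bone list had 7 rises and 2 falls among 11 genes. Runx2, the osteoblast master regulator, rose (2.08 ± 0.19), while the chondrocyte regulator Sox9 (-1.59 ± 0.21) and the phosphatase gene Alpl (-2.76 ± 0.42) fell.

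**Figure D2:**
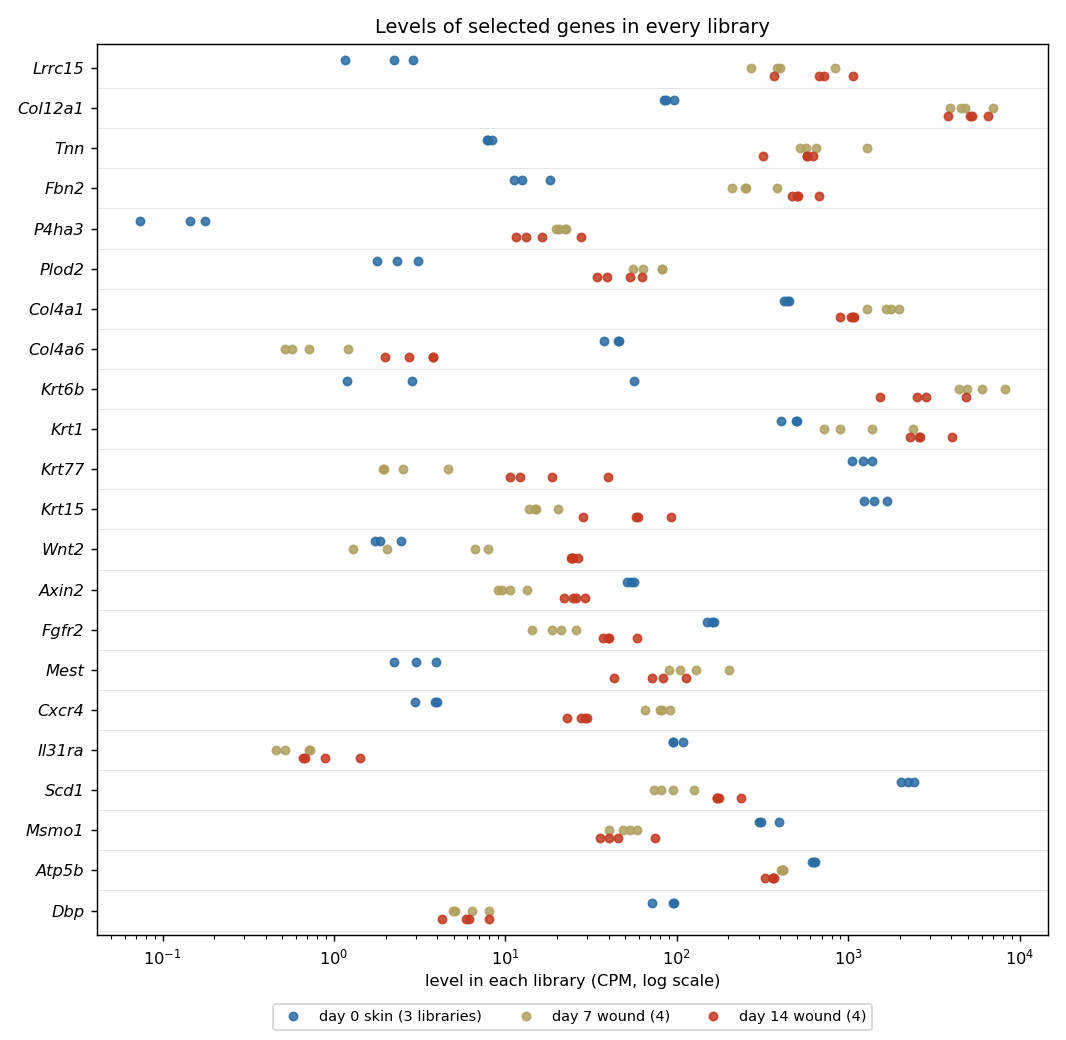
Level of 22 genes (x axis, CPM, log scale) in every library, with skin in blue, day 7 wound in tan and day 14 wound in red, 1 point per library. For all 22 genes the day 14 points lie apart from the skin points. For Col4a1, Col4a6, Krt77, Krt15, Axin2, Fgfr2, Cxcr4 and Scd1 all day 7 points lie further from skin than those of day 14.

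Epidermal and wound keratins split evenly, with 7 rises, 7 falls and 4 genes that did not pass among 18. Krt6a, Krt6b and Krt16 encode keratins that wounded epidermis makes. Krt6a stood at 171, 129 and 218 CPM in skin and 1086, 2308, 4544 and 2319.9 CPM in the wound (3.89 ± 0.47). Krt6b stood at 2.84, 1.19 and 56.2 CPM in skin, where replicate 4 was far above the others, and 1537, 2534, 4840.2 and 2840.2 CPM in the wound (7.19 ± 1.35). Both were separated from skin in every library, and in both replicate 3 was highest; without skin replicate 4 the log2 fold change of Krt6b was 10.52. These genes lie side by side at chr15:101689910-101694307 and chr15:101676023-101680287 (GRCm38) and are near copies. Their coding sequences in GENCODE vM21, of 1662 and 1665 bases, are identical at 97.6% of aligned positions, and 18.5% of the 150-base windows of the Krt6a transcript, the length of 1 read, occur unchanged in the Krt6b transcript. The stretch of 60 coding bases with the most differences, coding bases 817 to 876 in both, is shown because it is where reads of the pair differ most; capitals mark the 10 bases that differ.
Krt6a: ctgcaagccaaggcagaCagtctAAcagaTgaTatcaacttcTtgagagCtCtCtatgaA
Krt6b: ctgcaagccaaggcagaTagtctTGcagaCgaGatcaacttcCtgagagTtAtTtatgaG
Reads shared by this pair were divided between the genes by estimation, so the share of each gene is uncertain; the same holds for other near-identical families named here, such as the Sprr, Lce, hair keratin and cytochrome P450 genes.

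Krt16, the partner of the Krt6 keratins, stood at 15.2, 13.3 and 49.1 CPM in skin and 589, 1271, 2089 and 1233 CPM in the wound (5.64 ± 0.65, and 6.50 without skin replicate 4). Krt1, an early differentiation keratin of normal epidermis, also rose, from 498, 408 and 503 CPM to 2593, 2615, 4023 and 2282 CPM (2.62 ± 0.40), and its level was above day 7 by 1.10. Its partner Krt10 did not pass the test (0.39 ± 0.40). Krt77, a type II keratin of normal interfollicular skin and sweat ducts at chr15:101858731-101869705 (GRCm38), moved in the opposite direction. It stood at 1226, 1055 and 1369.9 CPM in skin and 10.7, 12.2, 39.7 and 18.6 CPM in the wound. The groups did not overlap (log2 fold change -5.90 ± 0.49), yet the wound level was above day 7, where it was 1.94 to 4.61 CPM, by 2.86 ± 0.46 (adjusted p = 0.0018). Krt15, of basal and bulge keratinocytes, fell from 1679, 1412 and 1243 CPM to 93.0, 28.5, 59.0 and 57.6 CPM (-4.60 ± 0.34). Krt79, of the follicle opening and sebaceous duct, fell by 2.22, and Krt23 fell by 2.24. Of the basal keratin pair, Krt14 rose by 1.32 and Krt5 fell by 1.01.

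Wound-edge keratinocyte genes rose in 29 of 37 cases and fell in 3, while 13 were below their day 7 level and none above it. The gap junction genes Gjb2 (4.88 ± 0.44) and Gjb6 (4.88 ± 0.57) and the cornified envelope precursor gene Sprr1b (6.0 ± 0.92) were among those that rose. Sprr1b stood at 0.177, 0.148 and 3.69 CPM in skin, where replicate 4 was again the highest, and its log2 fold change without that library was 9.02. Of 50 cornified envelope and barrier genes 14 rose and 5 fell. With the replicate number as a block 16 fell, and without wound replicate 3 12 fell. Without wound replicates 2 and 3, or with the 2 groups fitted alone, 8 fell. The late cornified envelope genes, families of near-identical copies, divided: all 6 Lce3 genes rose, with log2 fold changes of 5.29 to 7.84, while of all 14 Lce1 genes measured 3 rose, 1 fell and 10 did not pass the test. Lce1m fell from 165, 147 and 148 CPM in skin to 7.95, 12.8, 26.8 and 13.9 CPM in the wound (-3.32 ± 0.45). The repetin gene Rptn (4.15 ± 0.54), the epidermal caspase gene Casp14 (3.05 ± 0.61) and the transglutaminase gene Tgm3 (2.97 ± 0.37) rose. Flg2, a filaggrin relative, fell from 2963 to 3433 CPM to 499.6 to 1050.2 CPM (-2.20 ± 0.52). The genes Elovl4 (-2.36 ± 0.34) and Sptlc3 (-2.27 ± 0.29), which make the very long acyl chains and the sphingoid bases of barrier ceramides, fell, as did the tight junction gene Cldn1 (-1.56 ± 0.22).

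Genes of the growing hair were high in the wound. Of 14 inner root sheath genes 11 rose and 1 fell, with a median log2 fold change of 5.56, and of 26 hair shaft genes 17 rose and 1 fell, with a median of 4.90; setting the genes with no count in skin to their lower bound left both medians as given. No hair shaft gene fell without skin replicate 1 or 2 or wound replicate 4. Krt25, a keratin of the inner root sheath at chr11:99315516-99322951 (GRCm38), stood at 0.0886, 0 and 0 CPM in skin, 1 count in all, and at 115, 115, 64.3 and 82.9 CPM in the wound. Krt71, of the same sheath, stood at 0.620, 0.297 and 0.145 CPM and 183, 188, 99.5 and 142 CPM (8.77 ± 1.97), and the trichohyalin gene Tchh rose by 4.57 ± 1.11. All 4 wound libraries held these transcripts. At day 7 replicates 2 and 4 were high and the others low, with Krt71 at 0.404, 117, 2.93 and 93.8 CPM. The shaft keratin genes Krt81 (7.61 ± 1.70) and Krt86 (7.34 ± 1.51) rose likewise. Without skin replicate 1 the log2 fold change of Krt71 was 9.37 and that of Krt86 8.92. Several hair genes had no count in any skin library, so their rise is a lower bound set against 3 counts over the group: Krt73 was at least 247-fold higher, Krt33b at least 120.4-fold, Krt72 at least 118-fold and the sheath deiminase gene Padi1 at least 82.5-fold. Gata3, a regulator of the inner root sheath that the epidermis also makes, fell (-2.10 ± 0.23).

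Hair follicle stem cell and dermal papilla genes moved in the other direction, with 16 falls and 2 rises among 28. Without wound replicates 1 and 4 there were 4 rises, and without wound replicates 2 and 3 there was 1. The stem cell transcription factor genes Lhx2 (-3.61 ± 0.42) and Foxc1 (-2.85 ± 0.25) fell, as did the receptor gene Lgr6 of the isthmus (-3.23 ± 0.26) and the ectodysplasin receptor gene Edar (-3.56 ± 0.35). The bulge marker Lgr5 did not pass the test (-0.24 ± 0.37). Against day 7, 12 of the 28 genes were higher and 3 lower.

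**Figure D3:**
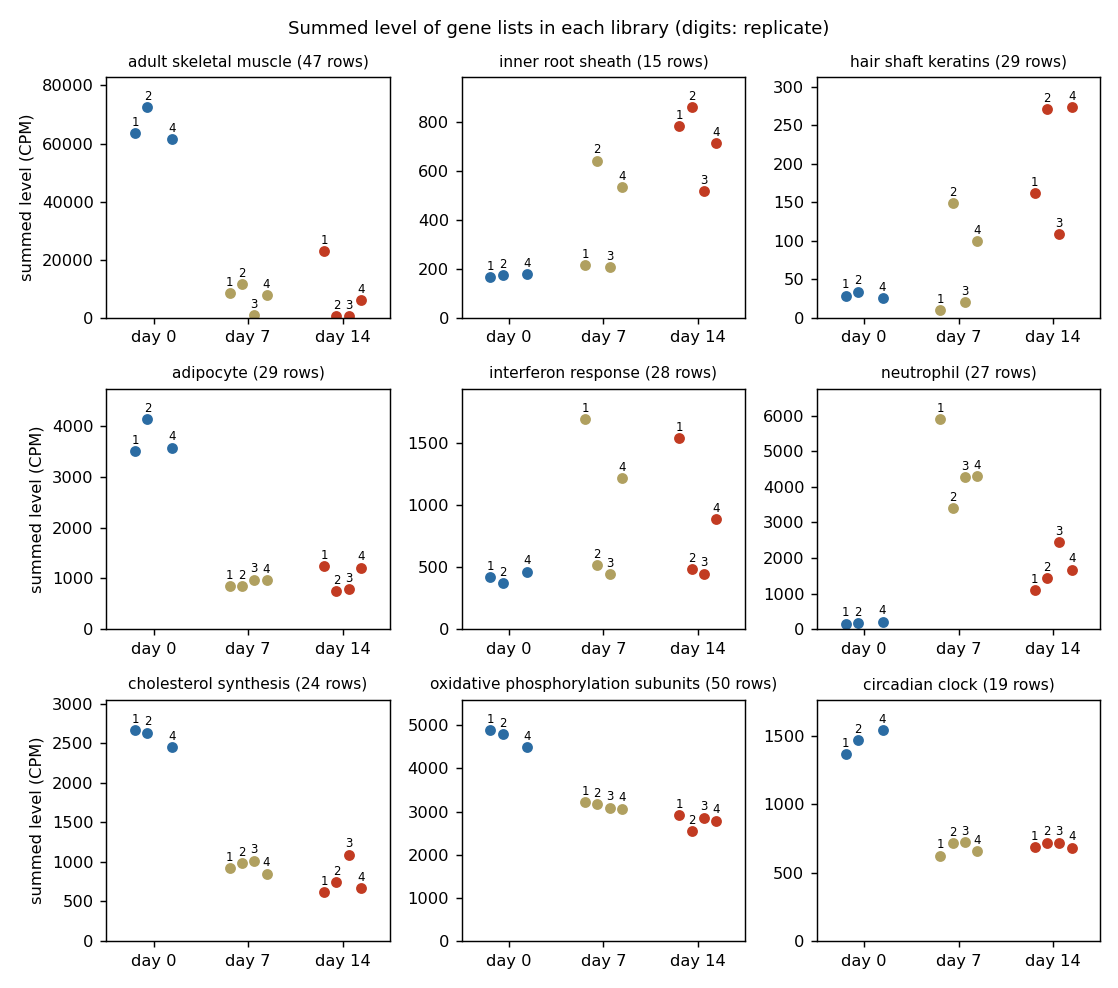
Summed level (y axis, CPM) of 9 gene lists in each of 11 libraries, by day, with the replicate number at each point. Muscle transcripts are near 0 in day 14 replicates 2 and 3, hair genes are high in all day 14 libraries but only in replicates 2 and 4 at day 7, interferon genes are highest in replicates 1 and 4 of both wound days, and the oxidative phosphorylation and clock lists lie within a narrow band in all wound libraries.

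Of 31 sebaceous gland and lipid synthesis genes 27 fell and 2 rose, with a median of -1.63. Scd1, a stearoyl-CoA desaturase, stood at 2238, 2423 and 2042 CPM in skin and 172, 173, 236 and 176 CPM in the wound (-3.56 ± 0.19). The groups did not overlap, wound replicate 3 was the highest of its group, and day 14 was above day 7 by 1.01. The sebaceous desaturase gene Scd3 (-4.72), the wax synthase gene Awat1 (-4.72), its relative Dgat2l6 (-5.78) and the fatty acyl-CoA reductase gene Far2 (-3.84) fell. The fatty acid hydroxylase gene Fa2h, counted in the Schwann cell and nerve list and not in this one, also fell (-3.79). The desaturase genes Fads2 (0.75 ± 0.19) and Scd2 (0.56 ± 0.17) were the 2 that rose, the latter not passing without skin replicate 4 (0.37, adjusted p = 0.063), wound replicates 2 and 3 (0.49, adjusted p = 0.11) or wound replicates 1 and 4 (0.60, adjusted p = 0.053). Sebocyte markers were lower in the same wound libraries, as given above, and their part in these differences was not tested.

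None of 24 cholesterol synthesis genes rose and 19 fell, with a median of -1.61. Msmo1, a sterol methyl oxidase, stood at 395, 309.9 and 300.2 CPM in skin and 40.4, 45.5, 74.6 and 35.5 CPM in the wound (-2.77 ± 0.24). The groups did not overlap, and wound replicate 3 was the highest of its group. The lanosterol synthase gene Lss (-2.73 ± 0.30), the isomerase gene Idi1 (-2.41 ± 0.26), Cyp51 (-2.39 ± 0.16) and the synthase gene Hmgcs1 (-1.65 ± 0.13) fell with it. Of 28 adipocyte genes 23 fell and 1 rose, with a median of -3.15. Among them were the lipid droplet genes Cidec (-4.78 ± 0.88) and Plin1 (-4.50 ± 0.74) and the resistin gene Retn (-4.85 ± 0.54). Without wound replicate 4 the values were -5.56 for Cidec and -5.19 for Plin1, and without wound replicate 1 that of Retn was -5.62. The deiodinase gene Dio2 rose (1.91 ± 0.37). Adipocyte transcripts were uneven among wound libraries: the summed list was 1242 and 1210 CPM in replicates 1 and 4 and 758 and 784 CPM in replicates 2 and 3, against 3496 to 4135 CPM in skin.

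**Figure D4:**
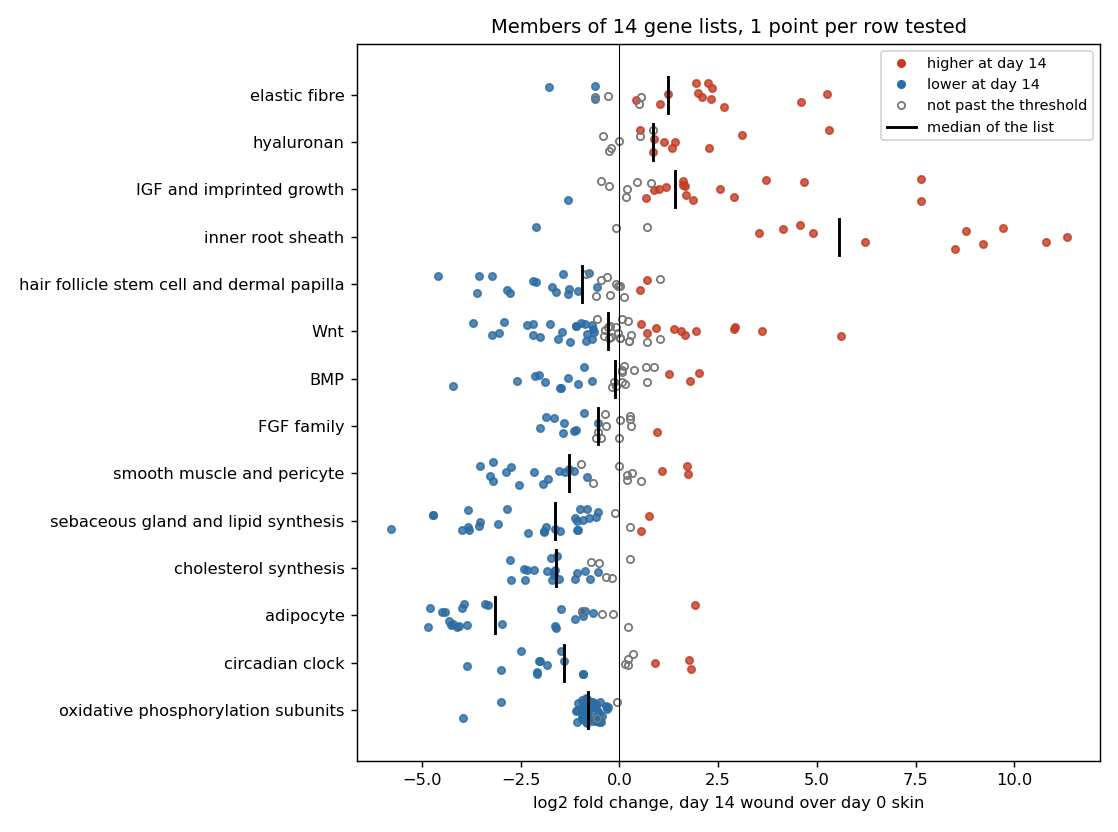
Log2 fold change in the day 14 wound over day 0 skin (x axis) of the members of 14 gene lists, 1 point per row tested, red where higher, blue where lower and open where the test was not passed; black bars are list medians. Most oxidative phosphorylation genes lie close together (list median -0.80), but the muscle forms Cox7a1 (-2.99) and Cox8b (-3.97) lie further left. The inner root sheath genes that rose lie far to the right.

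Subunits of oxidative phosphorylation fell almost as a block: 48 of 50 rows fell, none rose, and the median log2 fold change was -0.80. The falls took in all 17 genes of complex I, all 4 of complex II, 8 of 8 rows of complex III and cytochrome c, 9 of 11 of complex IV and 10 of 10 of complex V, the ATP synthase. Atp5b, the catalytic beta subunit of the ATP synthase, at chr10:128083273-128090391 (GRCm38), stood at 643, 634 and 612 CPM in skin and 364, 329, 369.7 and 363 CPM in the wound. The change was small but each group was narrow, giving -0.82 ± 0.06 (adjusted p = 3.8e-06). Ndufv1, of complex I (-0.92), Cox6c, of complex IV (-0.82), and Sdha, of complex II (-0.50), fell as well. Cox6a1 and Cox7b did not pass the test. The muscle forms Cox7a1 and Cox8b fell furthest, at -2.99 and -3.97, or -4.23 and -5.61 without wound replicate 1. Cox7b passed with the replicate number as a block (-0.78, adjusted p = 6.0e-05). Transcripts of skeletal muscle, a tissue rich in mitochondria, were also lower in the wound: 47 muscle rows summed to 61649 to 72520 CPM in skin and to 23008, 570.4, 625 and 6098 CPM in wound replicates 1 to 4. Within the wound group the summed subunits were 2911 and 2790 CPM in the replicates with muscle transcripts (1 and 4) and 2553 and 2861 CPM in those almost without (2 and 3), against 4488 to 4884 CPM in skin. Left out together, replicates 2 and 3 gave 46 falls and replicates 1 and 4 gave 47. Wound replicates 1 and 4 also held less muscle transcript than skin, and the part of muscle in these falls was not tested.

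Glycolysis and hypoxia genes showed no common direction against skin. There were 9 rises and 8 falls of 32, shares near the background, but 23 of the 32 were below day 7 and none above it. The glucose transporter gene Slc2a1 (1.12 ± 0.22) and the enolase gene Eno1 (0.98 ± 0.11) rose against skin and Ldha (-0.72 ± 0.11) fell. Antioxidant genes of the NRF2 list gave 8 rises and 11 falls of 36, or 22.2% and 30.6% beside 23.2% and 22.7% over all genes tested. The haem oxygenase gene Hmox1 rose (2.59 ± 0.23) and the mitochondrial superoxide dismutase gene Sod2 fell (-1.12 ± 0.21). Secretory pathway genes rose in 17 of 40 cases with small changes, a median of 0.24, in 9 without wound replicates 2 and 3, and in 10 without skin replicate 4.

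Circadian clock genes were among the most regular falls, with 12 falls and 3 rises of 19. Dbp, the output transcription factor of the clock, at chr7:45705088-45710203 (GRCm38), stood at 71.4, 95.5 and 96.8 CPM in skin and 6.11, 7.99, 4.24 and 5.87 CPM in the wound, with no overlap (-3.87 ± 0.22). Its relative Tef (-2.08 ± 0.11), the period gene Per3 (-2.08 ± 0.17) and the repressor genes Nr1d1 (-1.82 ± 0.12) and Ciart (-2.49 ± 0.32) fell too. The activator genes Arntl and Npas2 and the repressor Nfil3, which peak at the opposite phase of the cycle, rose. Arntl stood at 18.0, 12.4 and 14.6 CPM in skin and 35.6, 27.9, 25.3 and 24.1 CPM in the wound (0.91 ± 0.16), and Npas2 and Nfil3 rose by 1.81 and 1.77. The labels do not give the hour at which tissue was taken, so wounding and hour cannot be told apart for these genes.

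Wnt pathway genes fell more often than they rose against skin, in 22 and 11 of 51 rows, and 22 of the 51 were above day 7 with 2 below it. By role, 6 of 14 Wnt ligand genes rose and 5 fell. Wnt2 stood at 1.86, 2.45 and 1.74 CPM in skin and 24.5, 24.6, 24.2 and 26.4 CPM in the wound, where the 4 libraries lay within a narrow range (3.62 ± 0.53). Wnt16 (2.94 ± 0.40), Wnt9a (1.94 ± 0.32) and Wnt5a (1.55 ± 0.19) also rose, and the epithelial ligand genes Wnt7b (-1.77 ± 0.20) and Wnt3 (-1.45 ± 0.25) fell. Among secreted inhibitors, Sfrp2 and Sfrp4 rose, by 5.60 and 2.91, and Notum, Frzb and Wif1 fell, at -3.71, -2.92 and -2.18. Rspo1, which enhances Wnt signals, fell by 3.05. Axin2, a direct target of the pathway, stood at 56.3, 53.8 and 51.6 CPM in skin and 25.7, 24.6, 29.1 and 22 CPM in the wound (-1.09 ± 0.13). All wound libraries were below skin, and day 14 was above day 7 by 1.25.

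BMP pathway genes fell in 11 of 26 cases and rose in 3, or in 5 without wound replicates 2 and 3, and 5 of 6 target genes fell, among them Id1 (-1.30) and Smad9 (-2.03). The ligand gene Bmp4 fell by 2.60, and the antagonist genes Nog and Grem1 fell as well, at -4.22 and -2.13 (-5.23 for Nog without wound replicate 2), while Bmper rose by 2.01. In the FGF family 9 of 20 genes fell and 1 rose, among them 4 of 5 receptor genes. Fgfr2, whose epithelial form receives keratinocyte growth factor, stood at 159.9, 165 and 151 CPM in skin and 39.8, 40.1, 58.4 and 37.2 CPM in the wound (-1.85 ± 0.19), and Fgfr1 was the gene that rose (0.95 ± 0.12). EGF family ligand genes divided: Nrg1 (4.67 ± 0.51) and Hbegf (2.36 ± 0.42) rose, and Btc (-2.71 ± 0.39) and Egf (-2.33 ± 0.38) fell.

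In the TGF-beta and activin list 15 of 30 genes rose and 8 fell. Tgfb1 (1.76 ± 0.30), Tgfb3 (1.38 ± 0.26) and the receptor gene Tgfbr2 (1.18 ± 0.15) rose, as did the follistatin-like gene Fstl1 (2.50 ± 0.18). Tgfb2 fell (-1.07 ± 0.17). Insulin-like growth factor and imprinted growth genes rose in 15 of 22 rows and fell in 1, with a median of 1.40; none fell without skin replicate 1 or 4 or wound replicate 1 or 3. Mest, an imprinted gene of growing mesenchyme, stood at 3.01, 3.93 and 2.24 CPM in skin and 43.1, 72.1, 113 and 83.3 CPM in the wound, where replicate 1 was lowest (4.67 ± 0.44). The growth factor genes Igf2 (3.70 ± 0.81) and Igf1 (1.85 ± 0.16), the imprinted regulators Plagl1 (2.91 ± 0.24) and Grb10 (2.54 ± 0.17) and the cell cycle inhibitor gene Cdkn1c (1.67 ± 0.20) rose. Igf2 was uneven, at 19.6, 81.0, 8.20 and 11.1 CPM in wound replicates 1 to 4 against 2.17 to 2.45 CPM in skin, and its log2 fold change was 2.50 without replicate 2. In the Notch list 7 genes rose and 6 fell of 19: the vessel genes Dll4 (1.69 ± 0.31) and Notch4 (1.40 ± 0.21) rose and the ligand gene Jag2 (-1.77 ± 0.15) fell. The retinoid enzyme genes Aldh1a3 and Aldh1a1 moved apart, by 3.09 and -1.98.

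**Figure D5:**
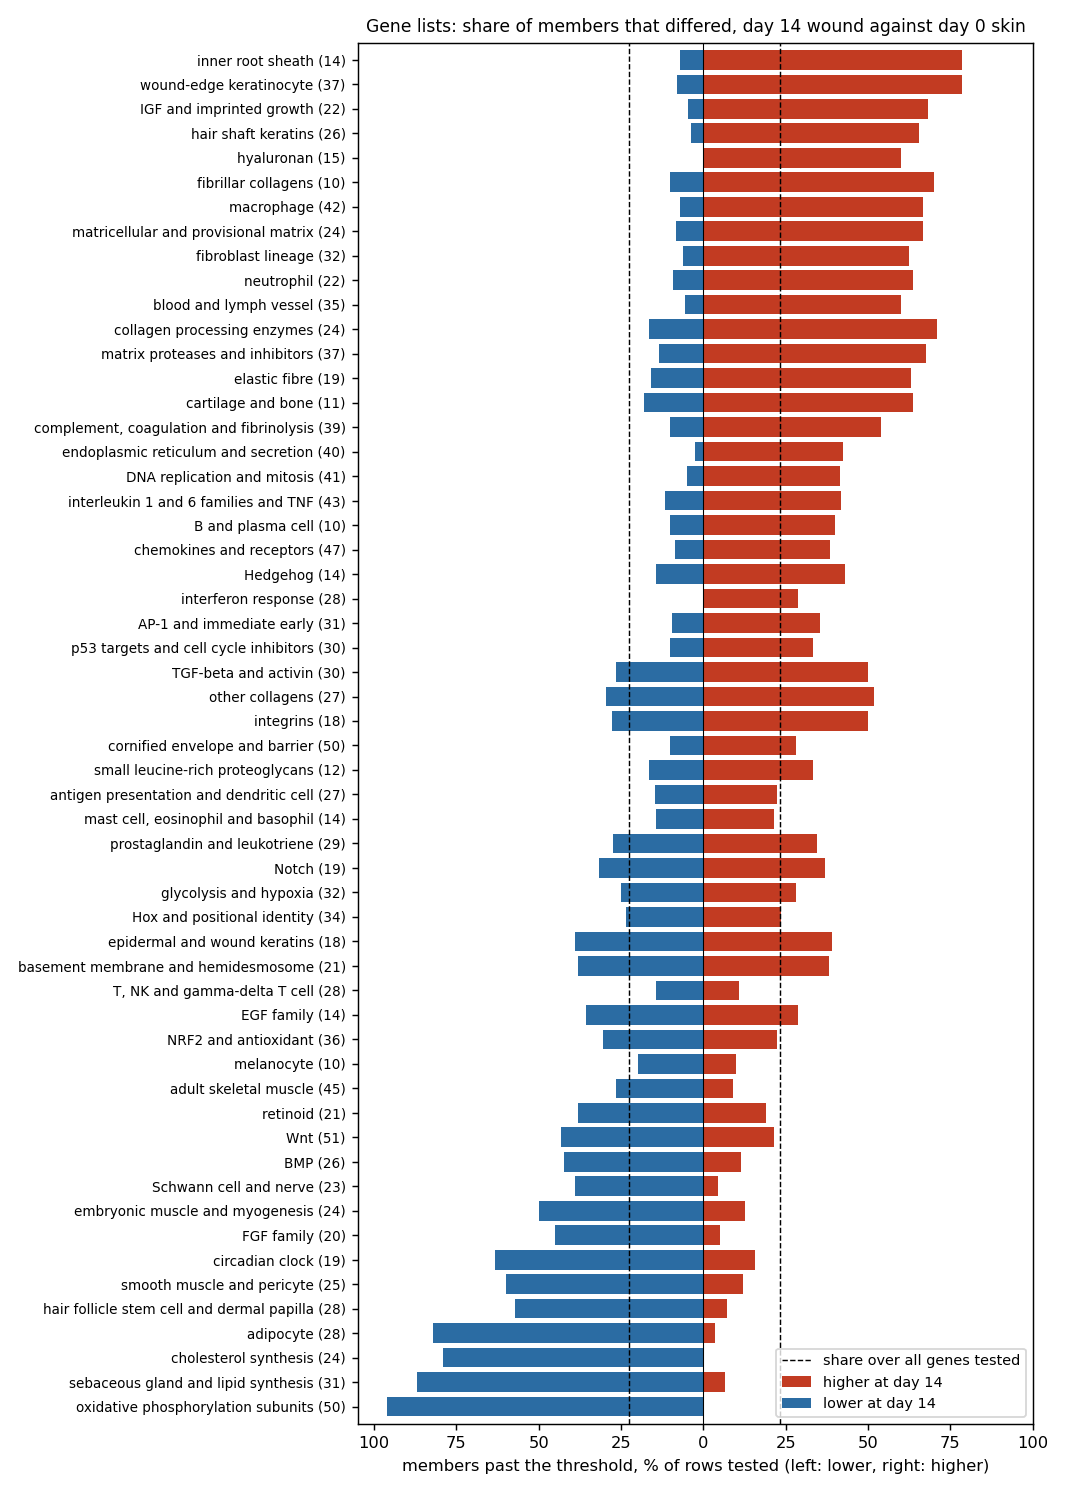
Share of members that were higher (red, right) or lower (blue, left) in the day 14 wound, as a percentage of the rows tested in each gene list with at least 10 rows (number of rows in brackets); dashed lines are the shares over all genes tested, 23.2% and 22.7%. Inner root sheath and wound-edge keratinocyte genes stand at the top, with 78.6% and 78.4% higher, and oxidative phosphorylation subunits at the bottom, with 96.0% lower.

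Vessel genes rose in 21 of 35 cases and fell in 2, and 16 were below their day 7 level. The tip cell genes Esm1 (4.06 ± 0.54) and Apln (3.37 ± 0.36), the apelin receptor gene Aplnr (2.11 ± 0.23), the angiopoietin receptor gene Tek (1.83 ± 0.23) and the pericyte gene Rgs5 (1.70 ± 0.19) rose. The lymphatic chemokine gene Ccl21a fell (-1.44 ± 0.35). Smooth muscle and pericyte genes fell in 15 of 25 cases and rose in 3, or in 5 with the replicate number as a block, with the 2 groups fitted alone or without wound replicates 1 and 4. The contractile genes Cnn1 (-3.20 ± 0.29), Lmod1 (-2.74 ± 0.40), Synpo2 (-2.54 ± 0.24) and Myh11 (-1.80 ± 0.18) fell, while Cald1 (1.74 ± 0.10), caldesmon, rose. Skeletal muscle genes had too wide a spread within the wound group for most to pass, with 12 falls and 4 rises of 45 rows. Yet all wound libraries lay below all skin libraries for 36 of the 45 rows, beside 26.3% of all genes tested. They lay above skin for 2, and the median log2 fold change was -2.93. Without wound replicates 2 and 3 there were 3 falls and 6 rises, and without wound replicates 1 and 4 there were 39 falls and 1 rise. Leaving out wound replicate 1 alone gave 30 falls, and leaving out any other single library but wound replicate 2 gave 5 to 7; without any single library but wound replicate 2 or 3 there was 1 rise. Of 23 Schwann cell and nerve genes 9 fell and 1 rose, while 14 fell without wound replicates 1 and 4 and 2 rose without wound replicates 2 and 3. Fa2h, given above, was among the falls of the main fit. Gldn, of the node of Ranvier, fell by 2.40 and the adhesion gene Ncam1 rose by 2.98.

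Macrophage genes rose in 28 of 42 cases and fell in 3, or in 6 without wound replicates 1 and 4. Lyz2, lysozyme, rose by 2.50 ± 0.19 and Trem2, a lipid-sensing receptor, by 4.21 ± 0.37. Of 14 chemokine receptor genes 6 rose and none fell. Cxcr4, the receptor for Cxcl12, stood at 3.90, 4.01 and 2.97 CPM in skin and 29.0, 27.6, 23 and 29.9 CPM in the wound, with little spread in either group (2.92 ± 0.16). Ccr1, a receptor of inflammatory chemokines, rose too (3.33 ± 0.44). Of 30 ligand genes 11 rose and 4 fell; the epithelial and stromal ligand genes Ccl27a (-2.48 ± 0.21), Cxcl14 (-2.74 ± 0.29) and Ccl19 (-2.76 ± 0.34) were among the falls. Neutrophil genes rose in 14 of 22 cases with a median of 3.20, and 17 of the 22 were below day 7. This list shares members with the wound-edge keratinocyte list, so its count is not of neutrophil transcripts alone. In the interleukin 1, interleukin 6 and TNF list 18 genes rose and 5 fell of 43, with 22 below day 7. Il1b was above skin by 4.37 ± 0.74 and below day 7 by 4.37, and the epidermal cytokine gene Il1f6 rose by 4.81 ± 0.68, and by 5.86 without skin replicate 4. Il20ra, a receptor subunit of keratinocytes, fell (-3.38 ± 0.32). Of 28 T and natural killer cell genes 3 rose and 4 fell, both shares below the background. With the replicate number as a block 7 rose, and 7 fell without wound replicate 1. None of 7 MHC class II genes passed the test, and the Langerhans cell gene Cd207, langerin, fell by 1.91.

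Interferon response genes depended on the library. Of 28 genes 8 rose and none fell. The summed level was 1539 and 884 CPM in wound replicates 1 and 4 but 485 and 448 CPM in replicates 2 and 3, against 371 to 465 CPM in skin. Without replicates 2 and 3, 17 of the 28 rose, without replicates 1 and 4 none did and 1 fell, and with the replicate number as a block 21 rose. DESeq2 gave 15 rises. Leaving out 1 library gave none without skin replicate 1 or 2, 4 without skin replicate 4, 5 without wound replicate 1 and 14 without wound replicate 3. At day 7 replicates 1 and 4 were likewise the highest, at 1693 and 1214 CPM.

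Complement, coagulation and fibrinolysis genes rose in 21 of 39 cases and fell in 4. Tfpi2, a protease inhibitor of the matrix, stood at 1.15, 1.04 and 1.30 CPM in skin and 15.8, 16.4, 19 and 19.7 CPM in the wound (3.91 ± 0.17). The groups were far apart and each was tight. The coagulation factor genes F7 (3.59 ± 0.38) and F10 (3.0 ± 0.46) and the plasminogen activator gene Plat (2.93 ± 0.15) rose. The terminal complement genes C6 (-3.94 ± 0.68) and C7 (-3.31 ± 0.70) fell, at -4.81 and -4.38 without wound replicate 1. Among prostaglandin and leukotriene genes 10 rose and 8 fell of 29, with Ptgis, prostacyclin synthase, up by 3.02 ± 0.41 and the prostaglandin D2 receptor gene Ptgdr down (-4.17 ± 0.56).

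Of 41 replication and mitosis genes 17 rose and 2 fell against skin, while 22 did not pass and 34 were below day 7. A single gene fell without skin replicate 1 or 4 or wound replicate 1 or 4. The mitotic kinase genes Bub1 (1.46 ± 0.18) and Cdk1 (1.03 ± 0.16) and the mitotic transcription factor gene Foxm1 (1.2 ± 0.23) rose, and the D-type cyclin gene Ccnd2 fell (-0.57 ± 0.10). Positional genes of the Hox list gave 8 rises and 8 falls of 34, shares near the background, with 5 falls without skin replicate 1 or without wound replicates 1 and 4. Hoxc10, of the posterior trunk and hindlimb, rose by 2.70 ± 0.35 (3.29 without skin replicate 2) and the mesenchymal gene Tbx18 by 2.17 ± 0.18.

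Some levels had moved part of the way back towards skin since day 7, and others further from it. Among the genes that had moved furthest up since day 7 while also differing from skin was Skint5, an epidermal gene of the Skint family, whose founding member selects skin gamma-delta T cells, at 78.4, 72.4 and 85.3 CPM in skin, 0.619 to 0.890 CPM at day 7 and 5.62, 5.33, 4.71 and 5.79 CPM at day 14. It was thus above day 7 by 2.87 ± 0.14 and still below skin. The aldo-keto reductase gene Akr1c14 (3.60 ± 0.41 against day 7), the Wnt modulator gene Dact2 (3.16 ± 0.44) and Islr2 (2.97 ± 0.40) were above both skin and day 7. Islr2, which encodes a leucine-rich repeat membrane protein, stood at 1.68, 3.71 and 3.62 CPM in skin and 65.4, 71.5, 41.7 and 60.4 CPM at day 14. Inflammatory genes were among the largest drops since day 7. The neutrophil attractant gene Cxcl5 was at 3.0, 3.33, 4.53 and 8.92 CPM at day 14 against 40.7 to 301 CPM at day 7, a difference of -5.08 ± 0.69, and the inflammasome gene Nlrp3 at 20.3, 3.11, 2.36 and 35.4 CPM against 277 to 559 CPM (-4.72 ± 0.77). In Nlrp3, wound replicates 1 and 4 were the higher pair at day 14.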

How the data were processed

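The deposited values are estimated counts per gene (RSEM expected counts), per the submitters' processing notes, which name Trimmomatic 0.32, FastQC 0.11.4, Bowtie2, RSEM 1.2.28 and the mm9 build; reads were paired and 150 bases long, per the labels' protocols. RSEM divides reads that match several genes, so near-identical genes are uncertain. Here, 92 spike-in rows were removed and 12.5% to 14.0% of values, which were not whole, were rounded. All 11 mouse libraries were fitted with edgeR 4.0.16 (filterByExpr, TMM, robust quasi-likelihood F-test, two-sided, Benjamini-Hochberg) in R 4.3.3. The spread had a common biological coefficient of variation of 0.22. In simulated data, none of the genes given a known change was called in the wrong direction.

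Alternatives were RLE size factors, no filter, DESeq2 1.42.0, the 2 groups alone, a replicate block, a minimum of 2-fold, libraries left out singly or together, and muscle or small RNA genes left out. The deviations of same-numbered libraries of skin and wound from their group means were weakly correlated (residual correlations 0.12, 0.18 and 0.20). Libraries of unlike number were not compared in this way, so these values alone do not show a pairing. Levels of the MHC genes H2-Eb1 and H2-D1, given at the end, did follow the replicate number across days. The main fit does not use the number, so its p-values take no account of any pairing. Blocked values stand beside calls they change and list counts they move by over 1.5 times. The labels do not say what a number marks. For day 14 and day 7 the residual correlations were 0.43, 0.02, 0.63 and 0.30.

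The 57 gene lists and the genes named were chosen with earlier results of these data known. Names follow a rule: of each list, the members with the largest changes and highest levels, the 12 largest separated rises and falls, the 12 highest levels, the 8 largest differences from day 7, marker genes, and genes with no count in 1 group; some genes it names are not reported here. Outside it, and chosen after their values were seen, are Acta2, Axin2, Casp14, Ccr1, Cdk1, Col4a1, Col4a2, Col4a5, Col7a1, Cox6a1, Cox6c, Cox7b, Ctgf, Cxcr4, Dpp4, Eln, En1, Eno1, F10, Far2, Foxc1, Gjb2, Gjb6, Grb10, Has2, Id1, Igf1, Lamb3, Lce1m, Ldha, Lgr5, Lmod1, Loxl1, Mmp11, Myh11, Ndufv1, Nr1d1, Per3, Plagl1, Plat, Rptn, Runx2, Sdha, Sprr1b, Synpo2, Tek, Tgfb1, Tgfb3, Tgm3, Thbs2, Timp1, Wif1, Wisp1, Wnt3, Wnt5a, Wnt7b, Wnt9a, Gli1 and Jun. Positions and sequences are from GENCODE vM21 (GRCm38), not the build of the counts.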

Additional observations from a re-analysis of the deposited data

Results flagged for a closer look

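For 19 of the 244 genes named in the text, and for 2 of 57 summed gene lists, 1 day 14 library lay far from the other 3; chance alone sets about 1 in 20 groups of 4 apart in this way. Replicate 3 was the highest library for the cholesterol synthesis genes Cyp51 (60.1 CPM), Idi1 (43.2 CPM) and Lss (27 CPM), for Scd1 (236 CPM), for Fgfr2 (58.4 CPM), for Il20ra (3.02 CPM) and for Mpo (0.754 CPM), and the lowest for Wnt16 (8.01 CPM). Replicate 2 was the highest for Igf2 (81.0 CPM), Itga5 (134 CPM), Tgfb1 (35.2 CPM), Nog (0.555 CPM) and the summed Wnt list (1909 CPM), and the lowest for Atp5b (329 CPM). Replicate 1 was the highest for Krt73 (26.3 CPM), the smooth muscle genes Cnn1 (2.23 CPM) and Lmod1 (5.62 CPM) and the summed T, natural killer and gamma-delta T cell list (169 CPM), and the lowest for Tnn (319.9 CPM), Crabp1 (35.3 CPM) and Eno1 (96.5 CPM).

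Among the genes named, 2 changed against skin in opposite directions at the wound days, and differed between day 14 and day 7 by edgeR's quasi-likelihood test; 33 genes did so of all tested. Dpp4 was above skin at day 14 (1.23 on the log2 scale) and below it at day 7 (-0.89). Ldha was below skin at day 14 (-0.72) and above it at day 7 (0.47).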

How the results depend on the processing

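The named genes were chosen from these same libraries, many for large changes, so their stability does not stand for that of all genes. The fall or rise against skin kept its direction in every alternative for all 235 named genes that passed, and 190 of them passed in all 17 alternatives. Of the other 45, all but Col4a5, Dpp4 and Scd2 failed only where the change was tested against a minimum of 2-fold. That test gave 749 genes higher and 826 lower than skin, and 74 higher and 227 lower than day 7, where the share of higher genes was then 24.6% against 45.0%; a stricter null is its construction. Leaving out 1 library at a time gave 2840 to 3517 genes higher and 2892 to 3408 lower than skin, and 1107 to 1577 higher and 1518 to 1972 lower than day 7. With the replicate number as a block the counts were 3818 and 3770 against skin and 2035 and 2371 against day 7; among named genes it changed the call of Cox7b alone, beside the list counts given above. Without wound replicates 2 and 3, 3035 genes were higher and 3129 lower than skin; without replicates 1 and 4, an alternative chosen after seeing the data, 3142 and 3198. Without the adult muscle genes the counts were 3452 and 3627. In counts simulated at the depth and spread of these libraries for this comparison, 70% of 2-fold and 93% of 4-fold changes were recovered. In that simulation 100 genes were changed at each size, all with a mean level over 1 CPM, and libraries were drawn independently. Recovery at lower levels was not measured. Far more genes differ in the real libraries, so these shares may not carry over to them. Of the simulated calls 1.8% were false, and 5.8% for day 14 against day 7.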

Other observations

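Gene lists not described above also held members that passed the test, to be read beside 23.2% higher and 22.7% lower over all genes tested. In the main fit neither share exceeded these in the mast cell list (21.4% and 14.3%) or the melanocyte list (10% and 20%). Of 12 small leucine-rich proteoglycan genes 4 rose and 2 fell against skin. In the mast cell, eosinophil and basophil list 3 genes rose and 2 fell of 14, and 7 of the 14 were above day 7. With the replicate number as a block 4 of them fell, and 1 fell without skin replicate 1 or 4 or wound replicate 1, 2 or 3. Of 30 p53 target and cell cycle inhibitor genes 10 rose and 3 fell, with 6 falls with the replicate number as a block, 5 without wound replicate 1 or 4 and 7 without both. Cdkn2a, which encodes the inhibitors p16Ink4a and p19Arf, was low throughout, at 0 to 0.266 CPM in skin and 1.26 to 3.30 CPM in the wound (3.78 ± 0.66, and 4.53 without skin replicate 1). Embryonic muscle and myogenesis genes numbered 24, of which 12 fell and 3 rose. Hedgehog genes gave 6 rises and 2 falls of 14, with the pathway antagonist gene Hhip, itself a target, falling (-2.20 ± 0.22) and Gli1 not passing (-0.31 ± 0.24). Of 10 melanocyte genes 1 rose and 2 fell, the pigment enzyme gene Dct falling by 1.88 on the log2 scale; 1 fell without skin replicate 2 or wound replicates 2 and 3, and 4 with the 2 groups fitted alone. Of 31 AP-1 and immediate early genes 11 rose and 3 fell, and 13 were below day 7; 17 rose with the replicate number as a block or without wound replicate 3. Jun rose by 1.15 ± 0.23.

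Some genes had levels that followed the replicate number rather than the day; they were chosen after their values were seen. H2-Eb1, an MHC class II gene, stood at 1.60, 4.04 and 3.68 CPM in replicate 1 at days 0, 7 and 14, and at 42.6 to 176 CPM in all other libraries. H2-D1, an MHC class I gene, stood at 175, 188 and 153 CPM in replicate 4 at the same days and at 421 to 1397 CPM in all others. The labels do not say what a shared replicate number stands for, and reads of the near-identical MHC genes are divided by estimation.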
